A study of Saccharomyces cerevisiae with 12 samples.

Results

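Deleting *HEL2* in yeast that already lacked the wobble-uridine modifications of tRNA was examined gene by gene in 5PSeq libraries, which hold mRNA fragments with a phosphate at the 5′ end. All genes that passed a filter for low counts were taken, 3378 of the 6302 genes in the count table, and they were measured in 6 of the 12 libraries of the series, 3 per strain. The strain compared was *ncs2∆elp6∆hel2∆* (*ncs2∆::HIS3MX elp6∆::URA3 hel2∆::LEU2*), and it was set against *ncs2∆elp6∆* (*ncs2∆::HIS3MX elp6∆::URA3*). The same deletion in cells with intact modifications, *hel2∆* (*hel2∆::LEU2*) against wild type, was used for a side-by-side view. All strains are BY4741, a haploid laboratory strain of *Saccharomyces cerevisiae* S288C, MATa with *his3∆1*, *leu2∆0* and *ura3∆0*, and were grown in YPD, a rich medium, at 30°C and 200 rpm. The wild type is also listed as *met15∆0*, which the genotypes of the 3 mutant strains do not list. Both *hel2∆* strains carry the *LEU2* marker that the strains they are set against lack, so loss of *HEL2* and gain of *LEU2* cannot be told apart in either comparison. The labels number the replicates but do not say whether they came from separate cultures, so p-values measure only the spread between these libraries.

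Uridine at the wobble position of several tRNAs carries modifications that need the Elongator complex, of which Elp6 is a subunit, and the URM1 thiolation pathway, in which Ncs2 acts. Without them some codons are decoded slowly, and at certain codon pairs ribosomes can run into each other. Hel2 is a ubiquitin ligase that marks collided ribosomes and starts ribosome-associated quality control (RQC), which splits the ribosome and degrades the nascent chain. When uncharged tRNA or stalled ribosomes activate the kinase Gcn2, the factor Gcn4 is translated and raises transcription of amino acid synthesis genes. 5′-phosphorylated fragments arise mainly after decapping, when the exonuclease Xrn1 follows the last ribosome, so their number reflects both the amount of an mRNA and how fast it is degraded, and the 2 cannot be told apart here.

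The reads on *HEL2* fitted the labels of both strains. *HEL2* had 0, 2 and 3 reads in the *ncs2∆elp6∆hel2∆* libraries, against 25, 40 and 24 reads in the *ncs2∆elp6∆* libraries. *NCS2* had 2 reads in the 3 *ncs2∆elp6∆hel2∆* libraries together and 0 in the 3 *ncs2∆elp6∆* libraries, and *ELP6* had 10 reads in the *ncs2∆elp6∆hel2∆* libraries and 4 in the *ncs2∆elp6∆* libraries. *ELP6* had at least 1 read in each of the 6 libraries, though both strains are labelled *elp6∆*. No level from a strain that keeps *NCS2* and *ELP6* is given here, so these reads do not check those deletions. The marker gene *LEU2* had 7 reads over the *ncs2∆elp6∆hel2∆* libraries and 1 over the *ncs2∆elp6∆* libraries, too few to test. *URA3*, listed as the marker of *elp6∆* in both strains, had 1 and 0 reads. *MET17* (*MET15*) averaged 59.5 CPM in the libraries labelled wild type, which are listed as *met15∆0*, beside 79.9 CPM in *ncs2∆elp6∆hel2∆*, 47.1 CPM in *ncs2∆elp6∆* and 87.6 CPM in *hel2∆*. Its level in the libraries labelled wild type therefore went against that part of their genotype. Depth was low, with 104202, 415323 and 237619 reads on genes in the *ncs2∆elp6∆hel2∆* libraries and 242874, 295085 and 227838 in the *ncs2∆elp6∆* libraries. Levels below are counts scaled to a common library total (CPM) with edgeR's TMM factors, listed by replicate number. Fold changes are log2 values with their standard errors, *ncs2∆elp6∆hel2∆* over *ncs2∆elp6∆*, and a gene was called where the adjusted p of edgeR's quasi-likelihood test was under 0.05.

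More genes were called higher than lower. Of the 3378 genes, 158 were higher in *ncs2∆elp6∆hel2∆* (4.68%) and 34 were lower (1.01%), 192 in all (5.68%). The rises were moderate, with a median log2 fold change of 1.30 and quartiles of 1.06 and 1.57, whereas all genes tested had a median of 0.03 and quartiles of −0.23 and 0.35. The deepest falls other than *HEL2* itself were in *LYS2*, *LEU1* and *OAC1*, genes of lysine and leucine synthesis. The libraries of the 2 strains did not overlap for 750 genes (22.2%), of which 475 were higher (14.1%) and 275 lower (8.14%). These counts leaned on single libraries. Without *ncs2∆elp6∆hel2∆* replicate 3, 38 genes were called, all of them among the 192, and without replicate 2 of that strain, 399 were called, of which 177 were among the 192. Leaving out *ncs2∆elp6∆* replicate 1 or 2 gave 109 and 75 calls. Of the 192 called genes, 36 of the higher and 17 of the lower ones had under 10 reads in at least 1 of the 6 libraries.

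**Figure D1:**
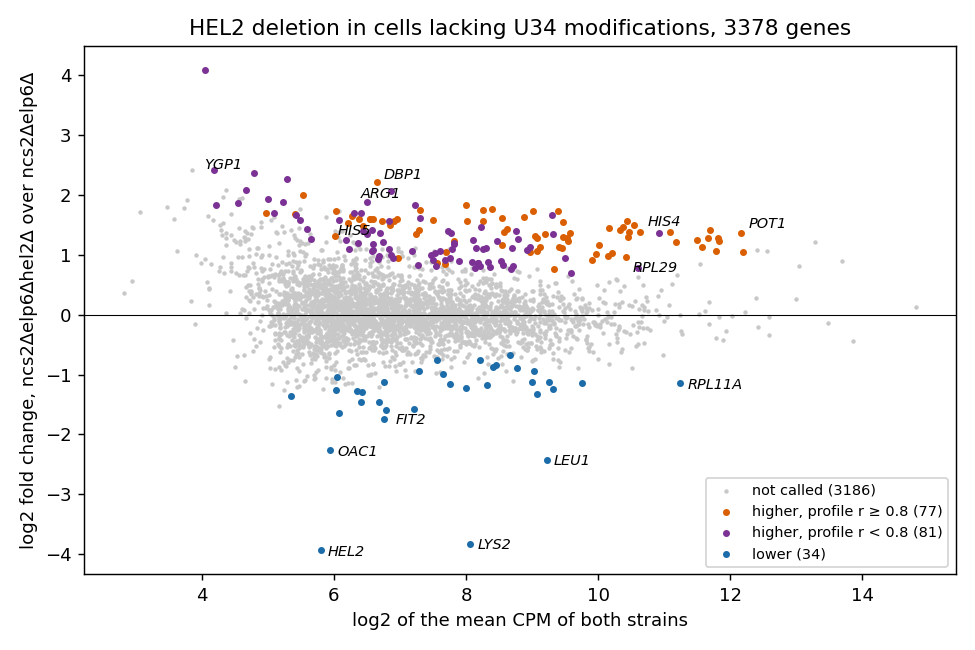
Fold change of each gene between *ncs2∆elp6∆hel2∆* and *ncs2∆elp6∆* (log2, vertical) against its mean level over both strains (log2 CPM, horizontal), with called genes in colour. Most called genes lie above 0, and *HEL2*, *LYS2*, *LEU1* and *OAC1* lie lowest, at −3.93, −3.82, −2.42 and −2.27.

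Many of the rises belonged to 1 set of genes whose level varied together between libraries of the same strain. The set was found after the data were seen, by how closely each gene's deviations from its strain means followed those of *POT1*, the peroxisomal thiolase of fatty acid oxidation, over the 12 libraries. *POT1* itself was picked after its values were seen, and the measure uses no difference between strains. A correlation of 0.8 or more was found for 131 genes (3.88% of those tested), which range over many functions and include *HIS4*, *LEU9*, *SIS1*, *MLS1* and *PFK1*. These genes took 17.7%, 10.2% and 19.3% of the reads in the *ncs2∆elp6∆hel2∆* libraries, against 6.87%, 7.51% and 9.58% in the *ncs2∆elp6∆* libraries. They took 26.9%, 28.3% and 22.8% in *hel2∆* and 21.4%, 26.3% and 27.9% in wild type. Thus all 3 *ncs2∆elp6∆hel2∆* libraries lay above the *ncs2∆elp6∆* libraries and below the strains with intact modifications, and replicate 2, the deepest library, was the closest to *ncs2∆elp6∆*.

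**Figure D2:**
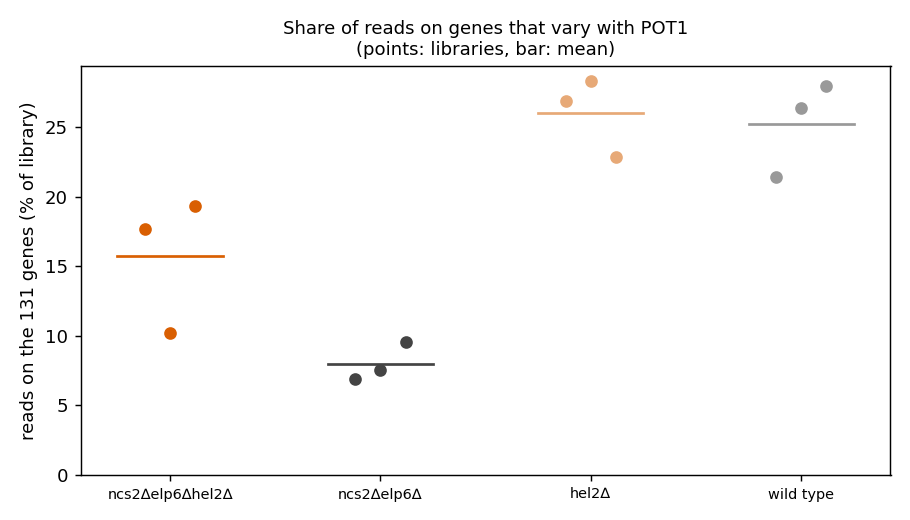
Share of each library's reads on the 131 genes that vary with *POT1* (percent, vertical) by strain, with points for libraries and a bar for the mean. The *ncs2∆elp6∆hel2∆* libraries spread from 10.2% to 19.3%, the *ncs2∆elp6∆* libraries from 6.87% to 9.58%.

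Among the 131 genes, 77 were called higher and 0 lower, and 128 had a positive fold change, with a median of 1.23. Of the other 3247 genes, 81 were called higher (2.49%) and 34 lower. Of the 158 genes called higher, 77 had a correlation of 0.8 or more with *POT1*, 48 lay between 0.5 and 0.8, and 33 lay below 0.5. Among all 2911 genes with a correlation below 0.5, 33 were called higher and 33 lower. The genes called lower had a median correlation of −0.30, and none reached 0.8. When the share of reads on the 131 genes was put into the model as a covariate, 4 genes were called, *ARG1* higher and *LYS2*, *LEU1* and *HEL2* lower. That share did not overlap between the 2 strains, so the covariate partly stands for strain. A call lost in this fit therefore cannot be assigned to the shared variation. With the 131 genes left out of scaling and testing, 66 genes were called, 45 higher and 21 lower. What sets this shared variation was not tested, and the correlation with *POT1* is therefore given beside many of the rises below. Among the falls it was −0.69 for *NOP58*, −0.68 for *RPN2*, −0.64 for *CDC14* and *MRP20* and −0.57 for *PHO4*. It was 0.63 for *LEU1* and 0.42 for *LYS2*. With the covariate, *NOP58*, *RPN2*, *CDC14*, *MRP20* and *PHO4* were at −0.19, −0.22, −0.18, −0.37 and −0.67. In the same fit *LEU1* and *LYS2* were at −2.73 and −4.21.

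**Figure D3:**
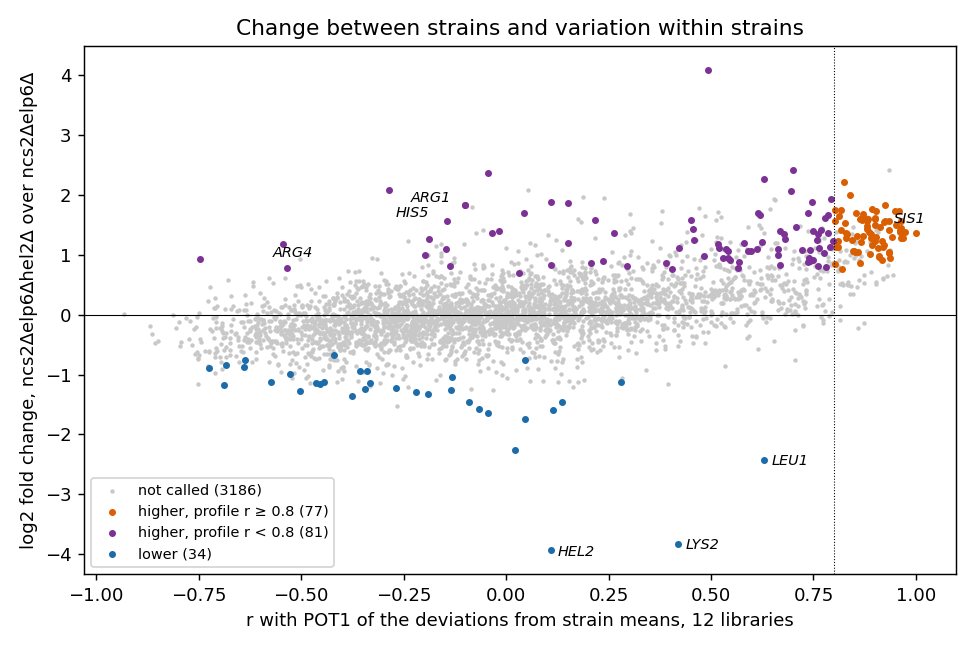
Fold change between *ncs2∆elp6∆hel2∆* and *ncs2∆elp6∆* (log2, vertical) against the correlation of each gene's within-strain deviations with those of *POT1* over 12 libraries (horizontal). The dotted line marks 0.8, right of which 77 of 131 genes were called higher, and *LYS2*, *LEU1*, *ARG1* and *HIS5* lie to the left of it.

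The lysine pathway held the strongest fall outside *HEL2*. *LYS2*, the aminoadipate reductase, had 70.6, 17.5 and 44.2 CPM in *ncs2∆elp6∆hel2∆*, against 533, 409 and 531 CPM in *ncs2∆elp6∆*. Every *ncs2∆elp6∆hel2∆* library was far below every *ncs2∆elp6∆* library, and the log2 fold change was −3.82 ± 0.33 (adjusted p = 2.47e-08). The raw reads were 7, 8 and 10 in *ncs2∆elp6∆hel2∆* and 134, 136 and 132 in *ncs2∆elp6∆*, so the gene was still detected in each library. No label lists a lysine allele in any strain, and no other value here checks the *LYS2* locus of *ncs2∆elp6∆hel2∆*, so a strain difference at *LYS2* and a response to *HEL2* loss cannot be told apart. *LYS12*, the homoisocitrate dehydrogenase, had 40.3, 63.3 and 31.0 CPM in *ncs2∆elp6∆hel2∆* and 99.5, 144 and 113 CPM in *ncs2∆elp6∆*. Its strains did not overlap either, and it fell by 1.28 (adjusted p = 0.0203), a call that held in 3 of 6 fits without a library. Other steps did not pass the test. *LYS9*, the saccharopine dehydrogenase, was at −1.06 ± 0.46 (adjusted p = 0.195), *LYS20* and *LYS21*, the homocitrate synthases, at −0.48 and 0.23, *LYS1* at −0.19 and *LYS4* at −0.12. *LYS14*, the activator of the pathway, was at 0.73 ± 0.26 (adjusted p = 0.106) and its correlation with *POT1* was 0.77. Thus 2 of 9 lysine genes fell (22.2%, beside 1.01% of all genes tested), none rose, and the median of the list was −0.19.

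Genes of leucine and branched-chain amino acid synthesis were called in both directions. *LEU1*, the isopropylmalate isomerase, had 202, 164 and 208 CPM in *ncs2∆elp6∆hel2∆*, against 1003, 951 and 1059 CPM in *ncs2∆elp6∆*. The libraries within each strain lay close together, and the fold change was −2.42 ± 0.21 (adjusted p = 2.47e-08). *OAC1*, a mitochondrial carrier of oxaloacetate that also carries isopropylmalate, had 30.3, 19.6 and 17.7 CPM in *ncs2∆elp6∆hel2∆* and 75.6, 117 and 109 CPM in *ncs2∆elp6∆*. All 3 *ncs2∆elp6∆hel2∆* values were below all *ncs2∆elp6∆* values (−2.27 ± 0.41, adjusted p = 0.00189). *LEU1*, like *LYS2*, stayed called whichever library was left out, and so did *OAC1*.

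*LEU9*, the minor isopropylmalate synthase, rose, with 585, 303 and 769.8 CPM in *ncs2∆elp6∆hel2∆* and 179, 199 and 246 CPM in *ncs2∆elp6∆* (1.38 ± 0.29, adjusted p = 0.00505), and it followed *POT1* closely (r = 0.96). *ILV6*, the regulatory subunit of acetolactate synthase, rose by 0.87 (adjusted p = 0.0287) with r = 0.21, a call that held in 2 of 6 fits without a library and was lost with DESeq2 (adjusted p = 0.0718). Its catalytic partner *ILV2* was at −0.23 ± 0.21 and was not called. *LEU4*, the major isopropylmalate synthase, was at −0.21, the regulator *LEU3* at −0.28, and the transaminases *BAT1* and *BAT2* at −0.23 and 0.40. *ILV5* and *ILV3*, the steps shared by all branched-chain amino acids, were at −0.67 ± 0.21 (adjusted p = 0.0596) and −0.50 ± 0.20, and *ILV1*, the threonine deaminase, was at 0.35. Of 12 genes, 2 rose and 2 fell (16.7% each, beside 4.68% and 1.01% of all genes tested), and the median was −0.23.

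**Figure D4:**
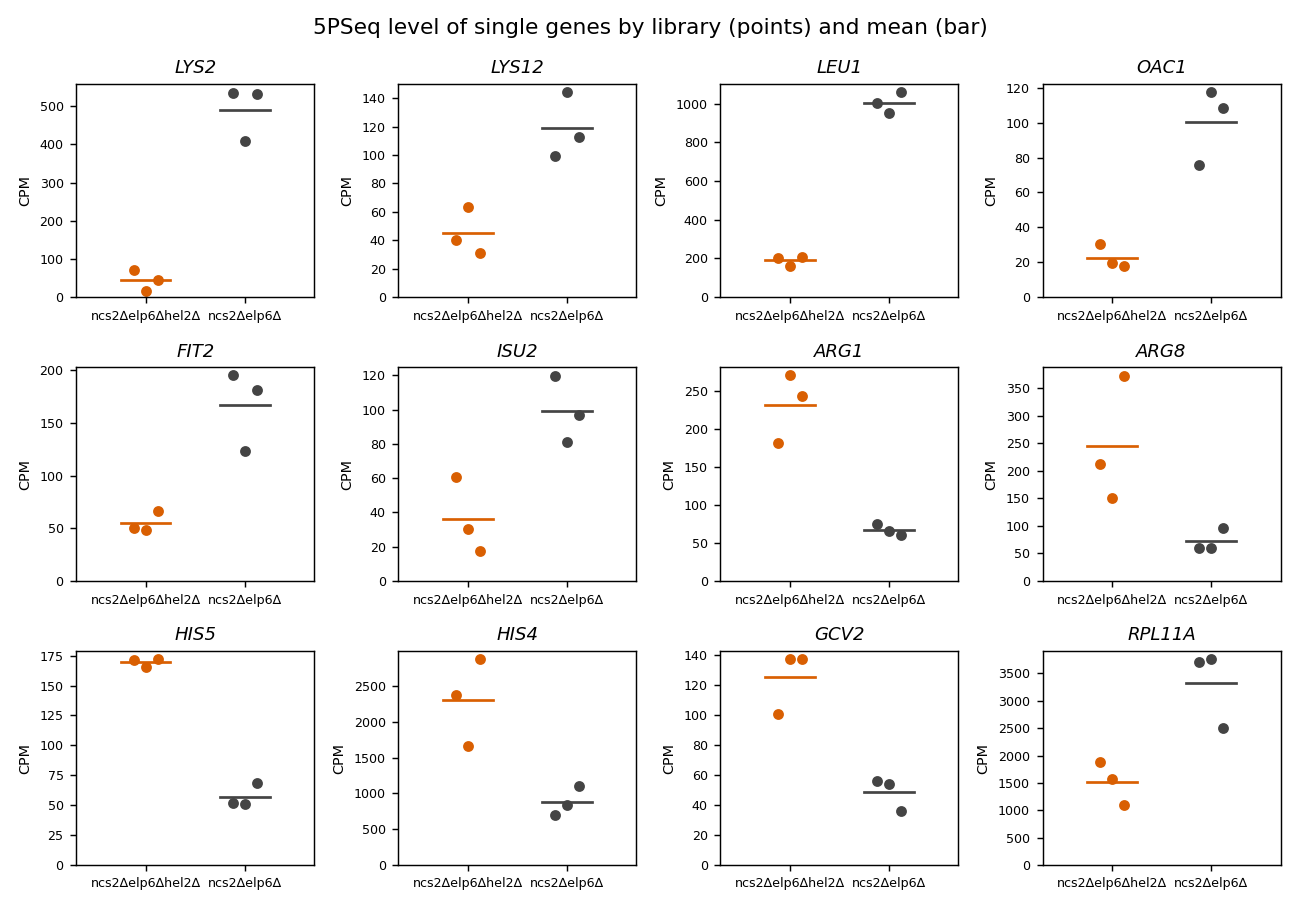
Level of 12 genes (CPM, vertical, from 0) in each library of *ncs2∆elp6∆hel2∆* and *ncs2∆elp6∆*, with points for libraries and a bar for the mean. The strains do not overlap in any panel, with lower *ncs2∆elp6∆hel2∆* values for *LYS2*, *LYS12*, *LEU1*, *OAC1*, *FIT2*, *ISU2* and *RPL11A* and higher ones for the other genes.

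Several genes of arginine and histidine synthesis rose. Of 13 tested genes for arginine, proline and ornithine metabolism, 5 were higher and 0 lower in *ncs2∆elp6∆hel2∆* (38.5% and 0%, beside 4.68% and 1.01% of all genes tested), with a list median of 0.56 (quartiles 0.35 to 1.11). *ARG1*, the argininosuccinate synthase, had 182, 271 and 243 CPM in *ncs2∆elp6∆hel2∆*, against 75.6, 66.2 and 60.4 CPM in *ncs2∆elp6∆*. The strains were well apart, the fold change was 1.83 ± 0.28 (adjusted p = 6.93e-04), and the gene did not follow *POT1* (r = −0.10). *ARG8*, the acetylornithine aminotransferase, had 212, 151 and 372 CPM in *ncs2∆elp6∆hel2∆* and 59.7, 60.2 and 96.6 CPM in *ncs2∆elp6∆*, without overlap (1.74 ± 0.32, adjusted p = 0.00192, r = 0.82). *ARG7*, the ornithine acetyltransferase, rose by 1.11 (adjusted p = 0.00413), and *ARG4*, the argininosuccinate lyase, by 0.78 (adjusted p = 0.0220). Their correlations with *POT1* were 0.42 and −0.53. The call for *ARG7* held in 6 of 6 fits without a library and that for *ARG4* in 3. The call for *ARG4* was among those lost without *ncs2∆elp6∆hel2∆* replicate 3. Without *ncs2∆elp6∆hel2∆* replicate 3, 4 genes of the list were still called.

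Histidine synthesis had 3 of 4 tested genes higher (75%, beside 4.68% of all genes tested), with a median of 1.14. *HIS5*, the histidinol-phosphate aminotransferase, had 171, 166 and 173 CPM in *ncs2∆elp6∆hel2∆* and 51.8, 51.2 and 68.4 CPM in *ncs2∆elp6∆*. The *ncs2∆elp6∆hel2∆* values were nearly identical and all above the *ncs2∆elp6∆* values (1.57 ± 0.27, adjusted p = 0.00140, r = −0.15). *HIS4*, a multifunctional enzyme of the pathway, had 2380.3, 1669.7 and 2880.2 CPM in *ncs2∆elp6∆hel2∆* and 701, 837 and 1107 CPM in *ncs2∆elp6∆* (1.39 ± 0.26, adjusted p = 0.00198), and its levels followed *POT1* (r = 0.96). *HIS1*, which catalyses the first step, rose by 0.89 (adjusted p = 0.0120, r = 0.24). *GCN4* itself was at 0.22 ± 0.32 (adjusted p = 0.797), with 111, 89.5 and 84.1 CPM in *ncs2∆elp6∆hel2∆* and 51.8, 114 and 64.4 CPM in *ncs2∆elp6∆*, and the strains overlapped.

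Calls were also made in other amino acid pathways. Aromatic amino acid synthesis had 3 of 12 genes higher (25%, beside 4.68% of all genes tested). *ARO3*, a synthase of the first step of the shikimate pathway, had 645, 432 and 655 CPM in *ncs2∆elp6∆hel2∆* and 175, 223 and 229 CPM in *ncs2∆elp6∆* (1.43 ± 0.23, adjusted p = 6.93e-04, r = 0.88). The multifunctional *ARO1* rose by 0.82 (adjusted p = 0.0274) and the tryptophan synthase *TRP5* by 0.78 (adjusted p = 0.0203). Their calls held in 2 and 3 of 6 fits without a library, and DESeq2 called neither. Of 14 genes for serine, glycine, threonine and one-carbon metabolism, 3 were higher (21.4%). *GCV2*, a subunit of glycine decarboxylase, had 101, 138 and 137 CPM in *ncs2∆elp6∆hel2∆* and 55.7, 54.2 and 36.2 CPM in *ncs2∆elp6∆*, again without overlap (1.39 ± 0.29, adjusted p = 0.00532, r = −0.02). A second subunit, *GCV1*, rose by 1.58 (adjusted p = 0.00695), and the cytosolic serine hydroxymethyltransferase *SHM2* by 1.35 (adjusted p = 0.00125).

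In sulfate assimilation and methionine synthesis, 2 of 23 genes were higher (8.70%, beside 4.68% of all genes tested). These were the aspartate kinase *HOM3* (1.24, adjusted p = 0.0322) and the siroheme enzyme *MET8* (1.31, adjusted p = 0.0390, r = 0.86). In glutamate, aspartate and ammonium metabolism, 2 of 18 were higher (11.1%), the nitrogen regulator *GLN3* (0.77, adjusted p = 0.0409) and the urea amidolyase *DUR1,2* (1.44, adjusted p = 0.0393). The calls for *GLN3*, *DUR1,2* and *MET8* held in 1 of 6 fits without a library and that for *HOM3* in 3, and DESeq2 called none of the 4. Of 25 permeases, the tryptophan permease *TAT2* (1.23, adjusted p = 0.0124, r = 0.90) and the oligopeptide transporter *OPT2* (1.83, adjusted p = 0.00189, r = 0.92) were higher (8%). *AQR1*, an exporter of amino acids, rose by 1.10 (adjusted p = 0.00654). None of the 31 aminoacyl-tRNA synthetase genes was called (0%, beside 5.68% of all genes tested), and their median was 0.10.

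**Figure D5:**
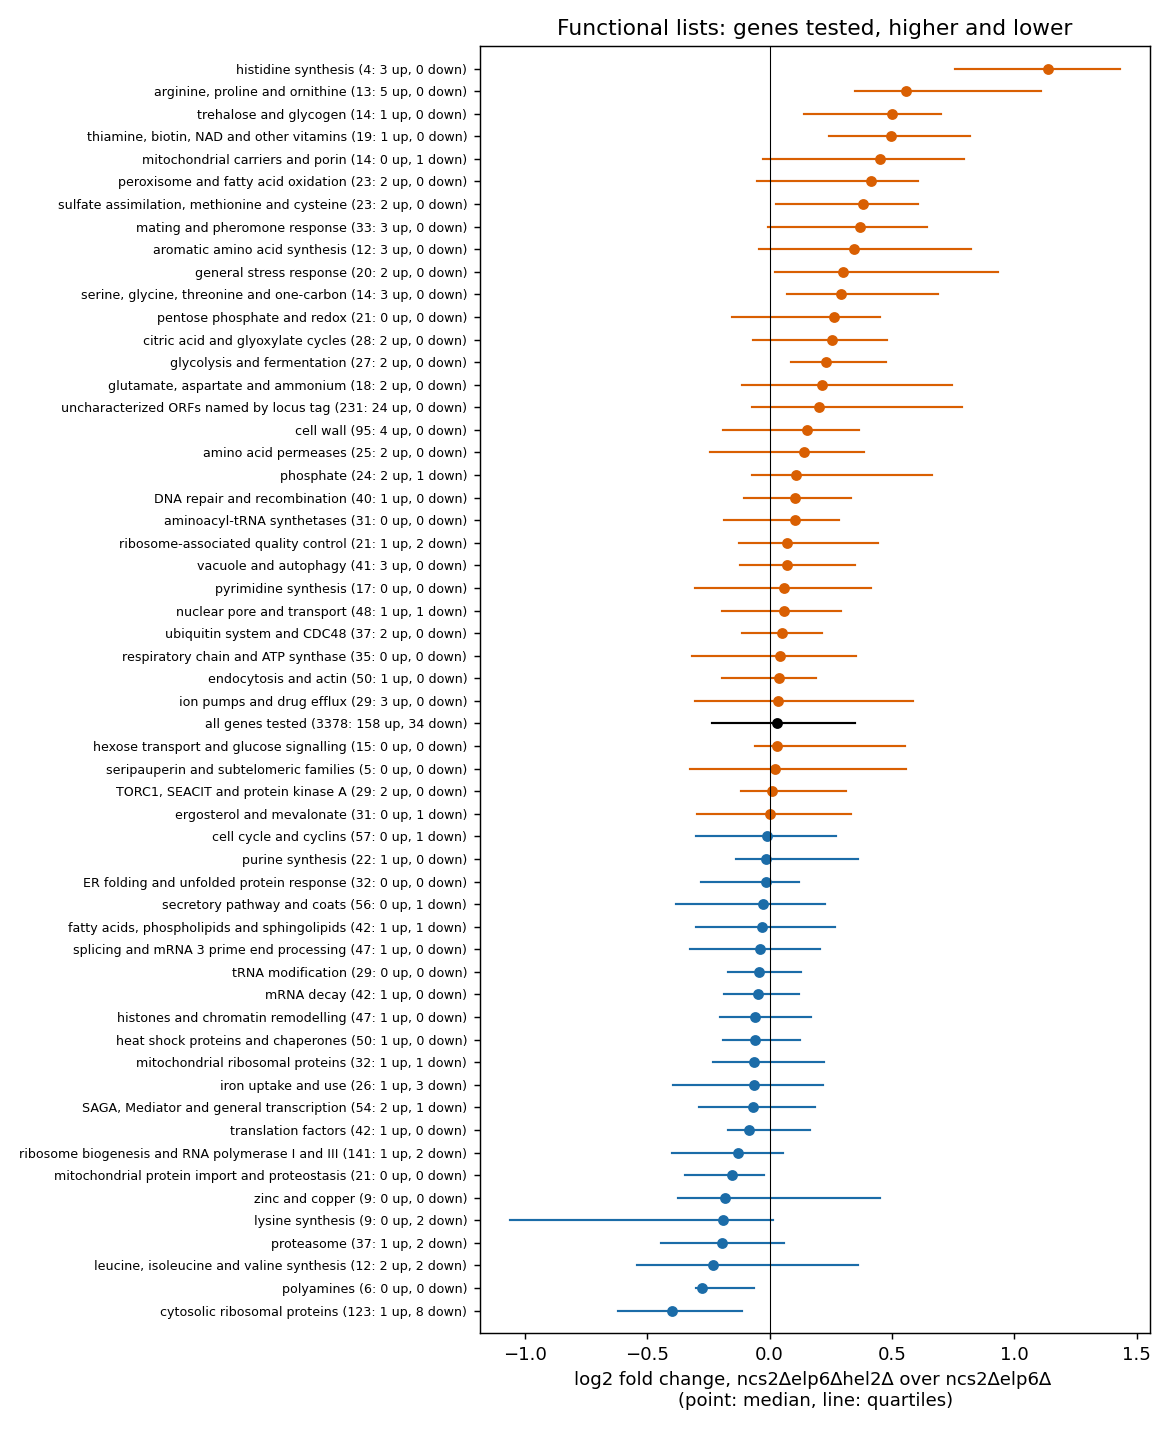
Median (point) and quartiles (line) of the log2 fold change, *ncs2∆elp6∆hel2∆* over *ncs2∆elp6∆*, for each functional list with at least 4 tested genes, with the numbers tested, higher and lower in brackets. Histidine synthesis lies highest at 1.14 and cytosolic ribosomal proteins lowest at −0.40, beside 0.03 for all genes tested.

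Iron genes were among the falls. *FIT2*, a mannoprotein that holds siderophore-bound iron in the cell wall, had 50.4, 48.0 and 66.4 CPM in *ncs2∆elp6∆hel2∆* and 195, 123 and 181 CPM in *ncs2∆elp6∆*. The strains did not overlap (−1.59 ± 0.33, adjusted p = 0.00532). *FIT3*, a related mannoprotein, had 192, 153 and 124 CPM in *ncs2∆elp6∆hel2∆* and 502, 247 and 318 CPM in *ncs2∆elp6∆* (−1.22 ± 0.27, adjusted p = 0.00691). *ISU2*, a scaffold for iron-sulfur clusters, had 60.5, 30.6 and 17.7 CPM in *ncs2∆elp6∆hel2∆* and 119, 81.3 and 96.6 CPM in *ncs2∆elp6∆* (−1.64 ± 0.43, adjusted p = 0.0237). All 3 genes were lower in each *ncs2∆elp6∆hel2∆* library than in any *ncs2∆elp6∆* library, and *FIT2* kept its call in all 6 fits without a library, *FIT3* and *ISU2* in 4. The only iron-list gene called higher was *BIO5*, a permease for a biotin precursor, at 0.91 (adjusted p = 0.0312) with r = 0.92. The call for *BIO5* held in 2 of 6 fits without a library. Of the 26 genes tested, 3 were lower and 1 higher (11.5% and 3.85%, beside 1.01% and 4.68% of all genes tested). Their median was −0.06.

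Of 24 phosphate genes, 2 were higher and 1 was lower (8.33% and 4.17%, beside 4.68% and 1.01% of all genes tested). *PHO4*, the transcription factor that activates phosphate-starvation genes, had 414, 345 and 221 CPM in *ncs2∆elp6∆hel2∆* and 848, 626 and 608 CPM in *ncs2∆elp6∆* (−1.12 ± 0.22, adjusted p = 0.00413). Its levels were lower in every *ncs2∆elp6∆hel2∆* library. *PHO5*, a secreted acid phosphatase and a Pho4 target, had 30.3, 34.9 and 133 CPM in *ncs2∆elp6∆hel2∆* and 15.9, 21.1 and 24.1 CPM in *ncs2∆elp6∆* (1.67 ± 0.50, adjusted p = 0.0487). Most of that rise lay in replicate 3, and the call held in 2 of 6 fits without a library. *VTC1*, a subunit of the vacuolar polyphosphate synthase complex, rose by 1.21 (adjusted p = 0.0124, r = 0.87), and its call also held in 2 of 6.

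Cytosolic ribosomal protein genes had the lowest median of the lists tested, −0.40 (quartiles −0.62 to −0.11), and 8 of 123 were called lower and 1 higher (6.50% and 0.813%, beside 1.01% and 4.68% of all genes tested). These genes took 3.91%, 4.23% and 3.08% of the reads in the *ncs2∆elp6∆hel2∆* libraries and 4.22%, 6.45% and 4.88% in the *ncs2∆elp6∆* libraries, which overlapped slightly. *RPL11A* had 1886, 1569 and 1093 CPM in *ncs2∆elp6∆hel2∆* and 3707, 3772 and 2503 CPM in *ncs2∆elp6∆* (−1.14 ± 0.26, adjusted p = 0.00889), and its copy *RPL11B* had 403, 426 and 305 CPM in *ncs2∆elp6∆hel2∆* and 939.6, 1105 and 644 CPM in *ncs2∆elp6∆* (−1.25 ± 0.24, adjusted p = 0.00296). Both copies were lower in every *ncs2∆elp6∆hel2∆* library. *RPL9A* (−1.57), *RPL41B* (−1.46) and *RPS19A* (−1.29) also fell without overlap between the strains. *RPS21B*, *RPS28A* and *RPL37B* were called lower, at −1.74, −1.46 and −1.32, with overlapping libraries. In these genes and in *RPL9A*, *RPL41B* and *RPS19A*, *ncs2∆elp6∆* replicate 2 was the highest library, and each call was lost without it. *RPL11B* kept its call in 6 of 6 fits without a library and *RPL11A* in 5. *RPL9A*, *RPL41B*, *RPS19A* and *RPL37B* kept theirs in 4, *RPS21B* in 3 and *RPS28A* in 2. DESeq2 did not call *RPS19A*, *RPS21B* or *RPS28A*. Most of these genes have a near-identical copy, and the counting kept uniquely mapped reads, so the split between copies is uncertain. *RPL29* was the gene that rose (0.96, adjusted p = 0.0212), and it followed *POT1* (r = 0.91). The call for *RPL29* held in 2 of 6 fits without a library.

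Ribosome assembly and protein turnover had few calls. Of 141 tested genes for ribosome biogenesis and RNA polymerases I and III, 1 was higher and 2 were lower, with a median of −0.13. These shares, 0.709% and 1.42%, stood beside 4.68% and 1.01% of all genes tested. *NOP58*, a core protein of box C/D snoRNPs, had 121, 332 and 92.9 CPM in *ncs2∆elp6∆hel2∆* and 350.4, 566 and 451 CPM in *ncs2∆elp6∆* (−1.17 ± 0.32, adjusted p = 0.0299), and *ESF1*, which acts in 18S rRNA processing, fell by 0.98 (adjusted p = 0.0443). The helicase gene *DBP7* rose by 1.09 (adjusted p = 0.0312). The calls for *NOP58* and *ESF1* held in 2 of 6 fits without a library and that for *DBP7* in 3. Among 37 proteasome genes, the regulatory-particle subunits *RPT3* (−0.95 ± 0.21, adjusted p = 0.00868) and *RPN2* (−0.84 ± 0.23, adjusted p = 0.0305) fell, and *POC4*, an assembly chaperone of the core particle, rose (1.73 ± 0.32, adjusted p = 0.00198, r = 0.95). The call for *RPN2* held in 2 of 6 fits without a library. In the proteasome list 1 gene was thus higher (2.70%) and 2 were lower (5.41%), and the median was −0.19.

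Of 21 RQC factors, *HEL2* and *TAE2* were lower and *RKR1* higher (9.52% and 4.76%, beside 1.01% and 4.68% of all genes tested). The share of 9.52% includes *HEL2*, the deleted gene, whose fall was set by the design. *TAE2*, also known as *RQC2*, whose protein adds alanine and threonine tails to stalled chains, had 242, 602 and 261 CPM in *ncs2∆elp6∆hel2∆* and 729, 1036 and 801 CPM in *ncs2∆elp6∆* (−1.13 ± 0.33, adjusted p = 0.0454). The strains did not overlap, but the call held in only 1 of 6 fits without a library and was lost with DESeq2 (adjusted p = 0.252). *RKR1*, also known as *LTN1*, the ligase that ubiquitinates the stalled chain, had 817, 716 and 1327 CPM in *ncs2∆elp6∆hel2∆* and 469.8, 512 and 503 CPM in *ncs2∆elp6∆* (0.95 ± 0.25, adjusted p = 0.0263, r = 0.74). Replicate 3 of *ncs2∆elp6∆hel2∆* was the highest library, and the call for *RKR1* held in 2 of 6 fits without a library. Of 42 translation factors, *DBP1*, a helicase related to the initiation factor Ded1, was the only one called (2.38% higher, beside 4.68% of all genes tested). *DBP1* had 171, 109 and 217 CPM in *ncs2∆elp6∆hel2∆* and 31.9, 24.1 and 48.3 CPM in *ncs2∆elp6∆* (2.21 ± 0.35, adjusted p = 6.93e-04, r = 0.82). No tRNA modification gene among 29 tested was called (0%, beside 5.68% of all genes tested).

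Of 50 heat shock and chaperone genes, 1 was called, as higher (2%, beside 4.68% of all genes tested). The median of the list was −0.06 (quartiles −0.19 to 0.13). The list took 2.61%, 3.02% and 2.98% of the reads in the *ncs2∆elp6∆hel2∆* libraries and 2.71%, 3.09% and 3.07% in the *ncs2∆elp6∆* libraries. *HSP104*, the disaggregase, had 444, 458 and 557 CPM in *ncs2∆elp6∆hel2∆* and 469.8, 479 and 394 CPM in *ncs2∆elp6∆* (0.12 ± 0.20, adjusted p = 0.814). Its strains overlapped, as did those of *HSP42* (0.50 ± 0.33), a small heat shock protein, and *BTN2* (−0.62 ± 0.31), a sorting factor for aggregates. The Hsp90 genes *HSP82* and *HSC82* were at −0.18 ± 0.22 and −0.04 ± 0.26. The Hsp70 genes *SSA1*, *SSA2*, *SSA3* and *SSA4* were at −0.04 ± 0.27, −0.20 ± 0.22, −0.09 ± 0.39 and 0.29 ± 0.30, and some of these share reads with near-identical copies. *SSE1*, *STI1*, *YDJ1* and *HSP78* lay between −0.18 and 0.09. The called gene was *SIS1*, an Hsp40 co-chaperone, with 5467, 3272 and 6508 CPM in *ncs2∆elp6∆hel2∆* and 1553, 2261 and 2439 CPM in *ncs2∆elp6∆* (1.28 ± 0.29, adjusted p = 0.00934). It followed *POT1* with r = 0.96.

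Of 33 genes of mating and the pheromone response, 3 were higher (9.09%, beside 4.68% of all genes tested) and 0 lower, with a median of 0.37. *FUS1*, a membrane protein needed for cell fusion, had 40.3, 48.0 and 35.4 CPM in *ncs2∆elp6∆hel2∆* and 11.9, 9.03 and 8.05 CPM in *ncs2∆elp6∆* (2.08 ± 0.47, adjusted p = 0.00868, r = −0.28). These levels rest on few reads, and the call held in 4 of 6 fits without a library. *SST2*, which switches off the pheromone-activated G protein, rose by 1.00 (adjusted p = 0.0322), with the call kept in 1 of 6 fits without a library, and *PRM5* by 1.74 (adjusted p = 0.00251, r = 0.80). In the cell wall list, 4 of 95 were higher, a share of 4.21% that lay below the 4.68% of all genes tested. *CWP1*, a wall mannoprotein, had 333, 325 and 283 CPM in *ncs2∆elp6∆hel2∆* and 155, 123 and 137 CPM in *ncs2∆elp6∆* (1.18 ± 0.21, adjusted p = 0.00190, r = −0.54). *YGP1*, a secreted glycoprotein induced in starved cells, had 50.4, 39.3 and 53.1 CPM in *ncs2∆elp6∆hel2∆* and 7.96, 12.04 and 4.02 CPM in *ncs2∆elp6∆* (2.37 ± 0.52, adjusted p = 0.00691). The strains did not overlap for either gene, though *YGP1* rested on few reads, 5, 18 and 12 in *ncs2∆elp6∆hel2∆* and 2, 4 and 1 in *ncs2∆elp6∆*. The flocculin gene *FLO10* (1.64, r = 0.87) and *QRI1* (1.60, r = 0.90), needed to make UDP-N-acetylglucosamine, rose and followed *POT1*.

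Carbon metabolism had scattered rises. In glycolysis and fermentation 2 of 27 genes were higher (7.41%, beside 4.68% of all genes tested). In the citric acid and glyoxylate cycles 2 of 28 were higher (7.14%). *PDC5*, a minor pyruvate decarboxylase, had 60.5, 50.2 and 48.7 CPM in *ncs2∆elp6∆hel2∆* and 11.9, 21.1 and 12.1 CPM in *ncs2∆elp6∆* (1.69 ± 0.41, adjusted p = 0.0141, r = 0.04). *PFK1*, a phosphofructokinase subunit (1.12, r = 0.92), and *MLS1*, the malate synthase (1.23, r = 0.92), rose and followed *POT1*, while *PYC1*, a pyruvate carboxylase, rose by 0.86 with r = 0.39. The calls for *PFK1* and *MLS1* held in 2 of 6 fits without a library, that for *PYC1* in 1 and that for *PDC5* in 3. DESeq2 called neither *PDC5* nor *PYC1* (adjusted p = 0.0537 and 0.0626). The trehalase *NTH1* was the only called gene of 14 in trehalose and glycogen metabolism (7.14% higher, beside 4.68% of all genes tested). The list had a median of 0.50. *NTH1* rose by 0.81 (adjusted p = 0.0285), and its call held in 2 of 6 fits without a library and was lost with DESeq2 (adjusted p = 0.102). *POT1* itself had 7504, 3968 and 8406 CPM in *ncs2∆elp6∆hel2∆* and 2023, 2477 and 3219.9 CPM in *ncs2∆elp6∆* (1.36 ± 0.31, adjusted p = 0.00886). *PEX29*, a peroxisomal membrane protein, rose by 1.19 (adjusted p = 0.0141, r = 0.15). The call for *PEX29* held in 5 of 6 fits without a library and was lost with DESeq2 (adjusted p = 0.0721). No gene of the respiratory chain and ATP synthase was called, of 35 tested (0%, beside 5.68% of all genes tested).

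In transport and membrane lists, the drug pumps *PDR5* and *PDR15* rose by 0.70 (adjusted p = 0.0299) and 0.81 (adjusted p = 0.0433), with correlations to *POT1* of 0.03 and 0.30. The vacuole and autophagy genes *VPS34*, *ATG14* and *PEP5* rose by 0.95, 1.03 and 0.85, and each followed *POT1* at 0.8 or more. *ERG11*, the lanosterol demethylase, fell by 0.67 (adjusted p = 0.0383), and the inositol transporter *ITR1* (−0.94, adjusted p = 0.0452) and the Rab GTPase gene *YPT1* (−1.13, adjusted p = 0.0443) were lower too. The mRNA export factor *MTR2* (−1.36), the Mediator subunit *MED2* (−1.15), the phosphatase *CDC14* (−0.76), the kinase *SWE1* (−1.05) and the mitochondrial ribosomal protein *MRP20* (−0.87) fell as well. The calls for *MTR2* and *SWE1* held in none of the 6 fits without a library, and those for *ERG11*, *MED2* and *PEP5* in 1. Those for *ITR1*, *CDC14*, *PDR5*, *PDR15*, *VPS34* and *ATG14* held in 2, and those for *YPT1* and *MRP20* in 4.

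Single genes rose in lists that otherwise had few or no calls, and several of them followed *POT1*. In RNA metabolism and transcription these were *LSM2* (1.38, r = 0.97), part of the Lsm ring that binds RNA 3′ ends, the splicing factor *PRP6* (1.35, r = 0.83), *TFA2* (1.55, r = 0.92), a subunit of TFIIE, and the Mediator subunit *NUT1* (1.31, r = 0.87). *LSM2* had 2158, 1185 and 2832 CPM in *ncs2∆elp6∆hel2∆* and 601, 683 and 1079 CPM in *ncs2∆elp6∆* (adjusted p = 0.00565). Its *ncs2∆elp6∆hel2∆* replicate 2 was the lowest of that strain and the nearest to *ncs2∆elp6∆*, as for *POT1*. *CDC4*, an F-box subunit of the SCF ubiquitin ligase, rose by 1.25 (r = 0.84), the purine synthesis gene *ADE6* by 0.98 (r = 0.91), the nucleoporin gene *NUP116* by 0.76 (r = 0.82) and the mitochondrial ribosomal protein gene *NAM9* by 0.86 (r = 0.86). The calls for *CDC4* and *NAM9* held in 2 of 6 fits without a library, that for *NUP116* in 1 and that for *ADE6* in 3. Rises with a correlation under 0.8 included the DNA repair ligase *RAD18* (1.11, r = 0.76), the ubiquitin ligase *UFD4* (0.91, r = 0.55), the TORC1 subunit *TCO89* (0.90, r = 0.74), the endocytosis gene *END3* (0.88, r = 0.74), *SWP82* of the SWI/SNF complex (0.79, r = 0.78) and *PSD2*, a phosphatidylserine decarboxylase (1.11, r = 0.52). The call for *RAD18* held in 3 of 6 fits without a library, those for *UFD4* and *TCO89* in 2, and those for *END3* and *SWP82* in 1. *PSD2* had 313, 356 and 496 CPM in *ncs2∆elp6∆hel2∆* and 151, 178 and 217 CPM in *ncs2∆elp6∆*, without overlap, and kept its call in 5 of 6 fits without a library. *LST7*, which acts in the amino acid signal to TORC1, had 3, 7 and 11 reads in *ncs2∆elp6∆hel2∆* and 2, 1 and 1 reads in *ncs2∆elp6∆* (2.41 ± 0.72, adjusted p = 0.0487) and kept its call in 1.

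Genes without a gene symbol were among the rises. Of 231 tested genes that the count data name only by a locus tag, 24 were higher (10.4%, beside 4.68% of all genes tested). None was lower, and their median was 0.20. Whether their function is known was not examined. Of these 24, 13 had a correlation with *POT1* under 0.8. *YKR047W* had 4, 13 and 6 reads in *ncs2∆elp6∆hel2∆* and 0, 0 and 1 reads in *ncs2∆elp6∆* (adjusted p = 0.00413), and it overlaps another gene in the annotation. With 1 read in *ncs2∆elp6∆*, no fold is given. *YDR109C* had 817, 609 and 1442 CPM in *ncs2∆elp6∆hel2∆* and 227, 304 and 370.3 CPM in *ncs2∆elp6∆* (1.67 ± 0.31, adjusted p = 0.00198), without overlap. Genes outside all lists, 1387 in all, included 68 higher (4.90%) and 5 lower. The largest of these rises were *RAD28* (2.26), *AMF1* (2.06), an ammonium transporter, and *DIA3* (1.92), which had 0, 5 and 5 reads in *ncs2∆elp6∆*.

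Few genes passed the threshold when *HEL2* was lost with the modifications intact. Between *hel2∆* and the libraries labelled wild type, 3 of the same 3378 genes were called (0.0888%), and 141 had an unadjusted p under 0.05, against 642 in the cells lacking U34 modifications. Of the 158 genes higher in *ncs2∆elp6∆hel2∆*, 110 had a positive fold change in *hel2∆* against wild type, and of the 34 lower ones 9 did, beside 1645 of all 3378. *LEU1* fell in both backgrounds, with a mean of 187 CPM in *hel2∆* and 482 CPM in wild type (−1.33 ± 0.22, adjusted p = 0.00537). *OAC1* had means of 16.1 CPM in *hel2∆* and 62.5 CPM in wild type (−1.72 ± 0.53, adjusted p = 0.980) and was not called there. *ARG1* had 124 CPM in *hel2∆* and 54.9 CPM in wild type (1.15 ± 0.37, adjusted p = 0.980), which also missed the threshold. The libraries of this pair are not shared with the *ncs2∆elp6∆* pair.

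The difference between the 2 effects of *HEL2* deletion was tested as an interaction, and 1 of 3378 genes was called (0.0296%), with 328 at an unadjusted p under 0.05. That gene was *LYS2*, with an interaction of −4.18 ± 0.44 on the log2 scale (adjusted p = 4.45e-06). It had means of 216 CPM in *hel2∆* and 172 CPM in wild type, and a fold change there of 0.36 ± 0.29 (adjusted p = 0.980). The interaction for *LEU1* was −1.09 ± 0.30 (adjusted p = 0.178) and for *ARG1* 0.68 ± 0.48 (adjusted p = 0.781). Without *ncs2∆elp6∆hel2∆* replicate 2, 92 genes were called for the interaction, and without a filter on low counts 26 were. For the rest of the 192 genes, a larger effect in cells lacking U34 modifications than in cells with them was therefore not shown.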

How the data were processed

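5PSeq was run on total RNA of 4 yeast strains with 3 libraries each. The authors deposited raw counts per open reading frame, not normalized. Per the labels and methods, adapters were trimmed with cutadapt, reads from noncoding RNA were removed with STAR 2.5.3a, the rest were mapped to open reading frames with Bowtie 1.2.3 (build sacCer3), PCR duplicates were removed with UMI-tools and uniquely mapped reads were counted. Reads are counts of fragments, so low levels carry counting error, and 3 reads equal 7.22e-04% to 0.00288% of a library over all 12 libraries.

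All 12 count columns were used, matched to strains by their labels. Counts were scaled by TMM and fitted with strain as the only factor in edgeR 4.0.16 (R 4.3.3; filterByExpr with a minimum count of 10, quasi-likelihood F test, Benjamini-Hochberg adjustment over 3378 genes, common dispersion 0.0337). The standard error is the log2 fold change divided by the square root of F. Correlations with *POT1* used log2 CPM with a prior count of 2. The authors' own comparison of 5PSeq with RNA-seq was not used. Locus tags of 5772 genes were matched to RefSeq (S288C), used for symbols, lengths and overlaps. The procedure was tested on simulated data in which genes varied independently of each other. That simulation held no shared library profile, so it does not cover calls among genes that vary together.

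The genes and the 56 functional lists were chosen with earlier results of these data known. Named genes are the deleted and marker genes, up to 25 of the largest rises and falls among called genes whose libraries do not overlap, up to 6 called genes per list and direction, all leucine, branched-chain and lysine genes, genes called for the interaction, and 16 chaperone and regulator genes. Some genes picked by these criteria are not reported here. Promoter motifs and protein composition were not examined. Alternatives were DESeq2 1.42.0, other filters and scalings, a replicate block, a fit of only the strains compared and each library left out in turn. The covariate fit and the fit without the 131 genes were chosen after seeing the data.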

Additional observations from a re-analysis of the deposited data

Results flagged for a closer look

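*LYS2* was the gene whose difference between strains with and without *HEL2* deletion was itself called as different in cells without and with U34 modifications. The interaction was −4.18 ± 0.44 on the log2 scale (edgeR, adjusted p = 4.45e-06). Its log2 fold change was −3.82 ± 0.33 in *ncs2∆elp6∆hel2∆* against *ncs2∆elp6∆* and 0.36 ± 0.29 in *hel2∆* against wild type. The interaction stayed called whichever of the 12 libraries was left out. It was not tested in the fit that required 10 counts in every library, which *LYS2* does not reach. The labels list no lysine allele in any strain, and a strain difference at *LYS2* and a response to *HEL2* loss cannot be told apart. Groups of 3 libraries are too small for a check of single outlying libraries.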

How the results depend on the processing

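Calls rested on few reads and few libraries. Of 192 genes called for *ncs2∆elp6∆hel2∆* against *ncs2∆elp6∆*, DESeq2 called 138, among 146 calls in all. No filter on low counts gave 311 calls, a fit of only the strains compared 126, the covariate for the shared library profile 4, and leaving out the genes of that profile 66. Fits without 1 library gave 38 to 399 calls. Requiring 10 counts in every library, upper-quartile scaling and library totals alone gave 149, 191 and 137. For *hel2∆* against wild type, 3 genes were called, and fits without 1 library gave 1 to 2. For the interaction, where 1 gene was called, no filter gave 26, requiring 10 counts in every library, which leaves out *LYS2*, gave 0 (edgeR), and fits without 1 library 1 to 92.

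Same-numbered replicates of *ncs2∆elp6∆hel2∆* and *ncs2∆elp6∆* correlated in their deviations at 0.08, 0.27 and 0.22. Each *ncs2∆elp6∆hel2∆* library correlated best with the *ncs2∆elp6∆* library of its own number, a hint from the data and not from the design. The best match of each *ncs2∆elp6∆* library was not examined. With a replicate block, 181 genes were called for *ncs2∆elp6∆hel2∆* against *ncs2∆elp6∆*, 2 for *hel2∆* against wild type and 1 for the interaction.

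Of 114 called genes among the 144 named, 26 stayed called in every fit without a library and 47 in at most 2 of 6, and DESeq2 called 74. With the covariate, 4 of the 114 were called, and 7 changed sign, *CSI1* to −0.35, *BIO5* to −0.12, *CDC4* to −0.26, *MLS1* to −0.37, *PFK1* to −0.22, *TFA2* to −0.027 and *ATG14* to −0.23. Some genes lost the call with about the same fold change, among them *HIS5* (1.57), *OAC1* (−2.30), *FIT2* (−1.89), *YGP1* (2.32) and *PDC5* (1.69). The covariate did not overlap between the 2 strains and partly stands for strain, so a lost call does not show that the shared variation made the difference. Why single calls were lost was not tested. The median of all genes was −0.06 with library totals alone and 0.03 with TMM.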
